A study of Ambystoma mexicanum with 60 samples.

Results

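Sections B (animal) and C (central) of cleaving axolotl embryos were compared, the pair of neighbouring sections that lies between the animal pole and the equator of the embryo. The comparison used the 18 libraries of sections B and C from the 9 embryos at the 1-, 4- and 64-cell stages, of 59 libraries with counts among 60 labelled samples of the series. Every embryo gave 1 library of each section, so the sections were compared within an embryo.

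The study sliced single *A. mexicanum* embryos along the animal-vegetal axis (TOMO-seq) and divided the slices into 5 sections, from A, extremely animal, to E, extremely vegetal. Section B was sequenced from 3 embryos at the 1-cell stage (labelled a fertilized egg), 3 at the 4-cell stage and 3 at the 64-cell stage, and section C from the same embryos. No embryo was treated, and no strain or age beyond the stage was labelled. Sections B and C of 3 further embryos at the 1K-cell stage (early blastula) served as other embryos of the same series. The embryos came from 2 experiments with different parents, which the labels do not assign to embryos, so the p-values do not account for parentage. Each library was made from the same mass of RNA, 100 ng, so a value is a level relative to the other RNA of its section, and the amount of RNA held by a section was not measured.

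Before the blastula an amphibian embryo runs mostly on RNA laid down in the egg. In the frog *Xenopus laevis*, RNAs anchored at the vegetal cortex during oogenesis include germ plasm RNAs, which are inherited by the germ line, and RNAs that direct endoderm and mesoderm. The animal hemisphere forms ectoderm and the equatorial belt forms mesoderm in amphibian embryos. The axolotl forms its germ cells by induction and is not known to use germ plasm. Sections B and C therefore sit far from the vegetal store, and the question is which RNAs differ between them at all.

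Library totals were between 2509880 and 4740660 counts in section B and between 2362555 and 5796197 counts in section C. The table holds 28909 transcripts, of which 16245 carry a human symbol, and counts summed per symbol gave 9194 genes. Levels below are deposited counts divided by each library's median-of-ratios size factor (normalized counts). Replicates of a stage differed well beyond counting noise, with a chi-square per transcript between 5.69 and 19.0 for pairs of libraries of 1 stage and section. Of 20 oocyte and egg coat genes, 13 were measured and all 13 had a mean above 10, and their summed level was between 4024 and 6333 in B and between 3778 and 6110 in C. Of 17 blood and immune markers only *ptprc* was measured (0 to 76.3 in B and 0 to 61.8 in C), of 23 follicle and oviduct markers only *muc5ac* (101 to 205 in B and 148 to 185 in C), and of 15 sperm markers 3 (summed 61.5 to 125 in B and 62.5 to 103 in C).

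The genes that passed the edgeR test between B and C were all lower in B. After counts were summed per symbol, 32 of 9194 genes were lower in B at an adjusted p under 0.01 (0.348% of genes tested) and 0 were higher in B (0%), with 776 lower and 504 higher at an unadjusted p under 0.05. DESeq2 on the same summed counts called 86 genes, 1 of them higher in B. The 32 genes included the germ line RNAs *nanos1* and *dnd1*, the Wnt ligand *wnt5a* and its receptor gene *fzd7*, the planar polarity gene *vangl1* and the laminin chain gene *lamc1*. They were between 1.21- and 2.95-fold lower in B, with a median of 1.59-fold. Over all genes the median log2 of B over C was 0.01, a value that the size factors hold near 0.

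At the level of single transcripts edgeR called 0 of 28909 between B and C (0%), with 2171 at an unadjusted p under 0.05, of which 1209 had a negative and 962 a positive log2 of B over C. DESeq2's likelihood-ratio test on the transcripts called 91 of the 9797 it gave an adjusted p, 72 lower in B (0.735%) and 19 higher in B (0.194%). At an adjusted p under 0.05, edgeR called 4 transcripts, those of *ssx2ip*, *rab11fip4*, *wsb2* and *nanos1*, all lower in B in 9 of 9 embryos. The named genes below come from the summed counts and were chosen after their values were seen, except for the genes that the study itself names.

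Germ line RNAs were among those with the widest gap. *nanos1*, whose protein represses translation in germ cells, had a level in B of 35.4 at the lowest, 61.5 at the median and 144 at the highest of 9 embryos, and in C of 66.7 at the lowest, 148 at the median and 299 at the highest. The ranges overlapped across embryos, but B was below C within 9 of 9 embryos. The log2 of B over C was -1.13 ± 0.11 (SE), 2.19-fold lower in B, with an edgeR adjusted p of 0.000142. Throughout, the error of a log2 is a standard error and that of a mean an SD. By stage, the 1-cell embryos averaged 41.5 ± 7.29 *nanos1* counts in B and 73.2 ± 6.34 in C (SD, n = 3 each). The 4-cell embryos averaged 62.2 ± 6.43 in B and 148.5 ± 17.0 in C, and the 64-cell embryos 104.2 ± 40.0 in B and 238.4 ± 53.0 in C. Both sections held their highest means at the 64-cell stage.

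*dnd1* encodes an RNA-binding protein that protects germ line mRNAs from microRNAs. Its level in B was 18.8 at the lowest, 31.4 at the median and 60.01 at the highest, and in C 35.5, 94.8 and 176 at the same points. The log2 of B over C was -1.56 ± 0.22 (adjusted p = 0.00274), the farthest from 0 of the 32 genes. B was below C in 8 of 9 embryos, and the exception was replicate 1 of the 1-cell stage, with 39.6 in B and 35.5 in C. The stage estimates were -0.71 ± 0.29, -1.77 ± 0.31 and -2.12 ± 0.27 at the 1-, 4- and 64-cell stages, a difference between stages that did not pass the test (adjusted p = 0.54).

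*grip2*, a PDZ adaptor gene whose RNA lies in *Xenopus* germ plasm, missed the threshold. Its level was 18.03 at the lowest, 27.3 at the median and 37.97 at the highest in B, and 30.9, 45.8 and 116 at the same points in C. B was below C in 9 of 9 embryos, with a log2 of B over C of -0.91 ± 0.18 and an adjusted p of 0.021. In the 3 embryos of the 1-cell stage B and C lay close, at 30.9 ± 6.17 in B and 36.5 ± 7.83 in C, whereas at the 64-cell stage the means were 31.7 ± 5.03 in B and 78.02 ± 32.97 in C. The difference between stages did not pass the test (adjusted p = 0.58).

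**Figure D1:**
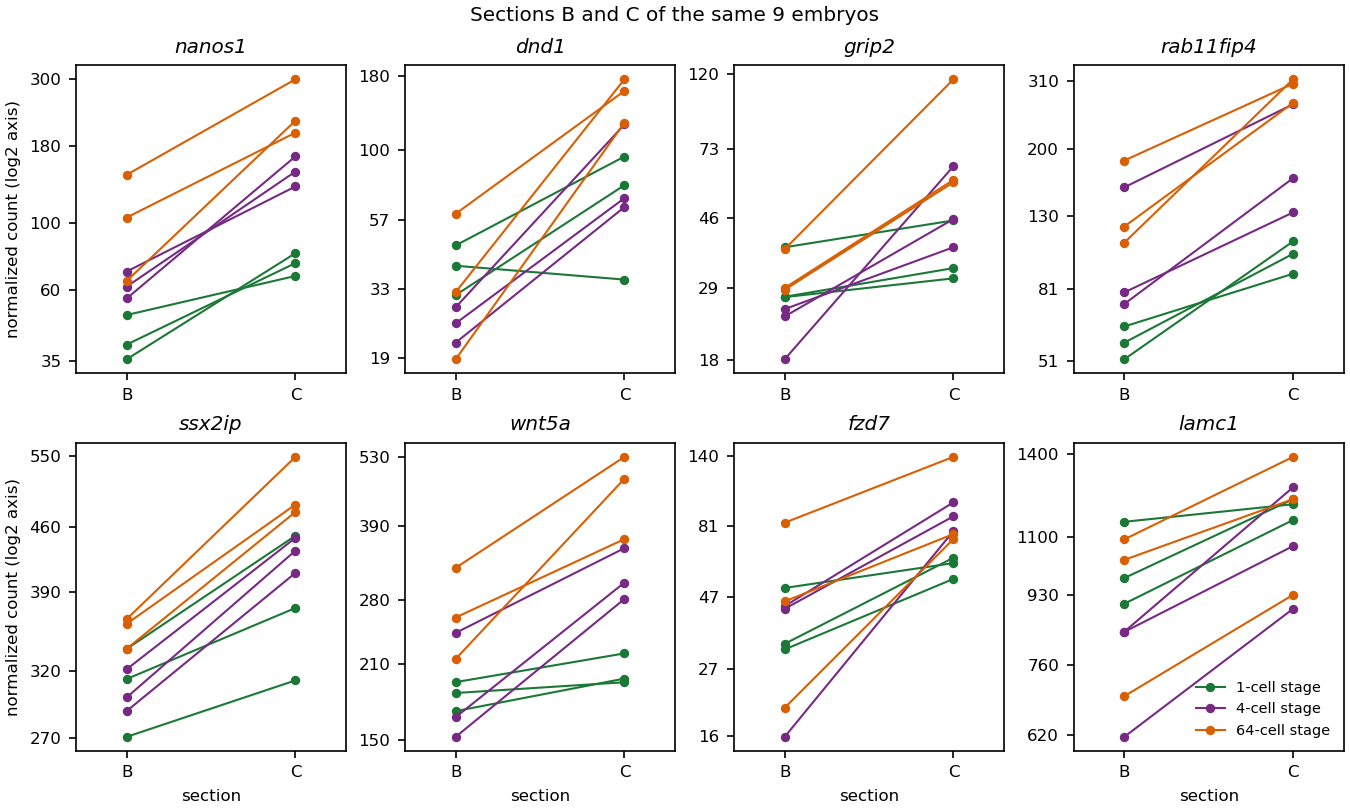
Normalized counts (log2 axis, with its own range for each gene) of 8 genes in section B (left) and section C (right), with 1 line per embryo and a colour per stage. All lines lie lower at B than at C apart from 1 embryo of the 1-cell stage for *dnd1*, and the orange lines of the 64-cell stage reach the highest C level in each panel.

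The other germ plasm and germ cell genes did not pass the test between B and C. Of 28 listed, 21 were measured, and 2 were called lower in B (*nanos1* and *dnd1*), 0 higher in B, with 5 lower and 1 higher at an unadjusted p under 0.05 and 3 lower by DESeq2. Over all 9194 genes 0.348% were called lower in B, and DESeq2 called 85 lower. At an unadjusted p under 0.05, 8.44% of all genes were lower and 5.48% higher. The vasa homologue *ddx4* had a log2 of B over C of 0.12 ± 0.06 (adjusted p = 0.36), *dazl*, a germ cell translation factor, -0.23 ± 0.20 (0.64) and *rbpms2*, an RNA-binding protein gene, -0.01 ± 0.06 (0.95). The study follows 2 *rbpms2* transcripts as vegetal germ cell markers. The value here is for counts summed per symbol and does not speak for either transcript alone. The median of the 21 genes was -0.02 beside 0.01 for all genes. *hmmr*, a hyaluronan receptor gene whose protein binds the mitotic spindle, was below C in 8 of 9 embryos, with means of 318.2 in B and 441 in C and a log2 of -0.47 ± 0.10 (adjusted p = 0.036). *tfap2c*, a transcription factor of germ cell specification in mammals, averaged 47.9 in B and 108.7 in C (log2 -1.08 ± 0.26) and was below C in 6 of 9 embryos (adjusted p = 0.057).

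The called Wnt component RNAs were *wnt5a*, *fzd7* and *vangl1*. *wnt5a*, a ligand of the non-canonical pathway, had levels of 152, 194.0 and 323 in B and of 194, 303 and 531 in C (lowest, median and highest of 9 embryos). B was below C in 9 of 9 embryos, with a log2 of B over C of -0.60 ± 0.10 (adjusted p = 0.00749). At the 1-cell stage the means were 183 ± 11.9 in B and 204 ± 14.6 in C, and at the 64-cell stage 266 ± 54.4 in B and 460.3 ± 83.9 in C. *fzd7*, a Frizzled receptor gene, was lower in B by 2.06-fold, with levels of 16.0, 42.9 and 83.4 in B and of 54.0, 76.4 and 139 in C (log2 -1.04 ± 0.17, adjusted p = 0.00581). *vangl1*, a core planar cell polarity gene, was lower in B by 1.24-fold (log2 -0.31 ± 0.05, adjusted p = 0.0079). The planar polarity genes *vangl2* (log2 -0.05 ± 0.07, adjusted p = 0.81) and *prickle1* (-0.05 ± 0.12, 0.91) did not pass. *wnt5a*, *fzd7* and *vangl1* were all of the 43 measured Wnt components that passed, beside 0.348% of all genes. Of the 43, 34 had a negative log2 of B over C, against 4387 of 9194 over all genes, with a median of -0.05. The co-receptor gene *lrp6* was below C in 9 of 9 embryos without passing (log2 -0.21 ± 0.05, adjusted p = 0.034). The study's introduction cites *dvl2*, *dvl3*, *gsk3b* and *ctnnb1* from earlier frog work on the dorsal-ventral pattern, which found no RNA asymmetry. That is another species and another axis. Between B and C *dvl2* had a log2 of -0.17 ± 0.05 and was below C in 8 of 9 embryos (edgeR unadjusted p = 0.00481). The others had 0.03 ± 0.07 for *dvl3*, -0.09 ± 0.06 for *gsk3b* and -0.05 ± 0.04 for *ctnnb1*. None of these 4 passed (adjusted p between 0.15 and 0.91).

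Other called genes with small p-values included *rab11fip4*, *ssx2ip* and *plpp2*. *rab11fip4*, an effector of the recycling endosome GTPase Rab11, had levels of 51.4, 79.2 and 186 in B and of 89.4, 166 and 314 in C (lowest, median and highest of 9 embryos). It was 1.95-fold lower in B, in 9 of 9 embryos (log2 -0.97 ± 0.09, adjusted p = 0.000142). *ssx2ip*, which anchors microtubules at centrosomes, had levels of 271, 321 and 364 in B and of 312, 447 and 549 in C. Its gap was modest but even among embryos, with a log2 of B over C of -0.44 ± 0.05 (adjusted p = 0.000566). *plpp2*, a lipid phosphate phosphatase gene, was 1.90-fold lower in B (log2 -0.93 ± 0.12, adjusted p = 0.00137). *sh3bp4*, an endocytosis gene that the study names, was below C in 9 of 9 embryos but missed the threshold (log2 -0.50 ± 0.09, adjusted p = 0.013).

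RNAs of the secretory pathway and the cell surface were also among the 32. *lamc1*, the laminin gamma 1 chain, was the most abundant of the 32, with levels of 617, 907 and 1150.0 in B and of 894, 1210.0 and 1388 in C, and was 1.29-fold lower in B in 9 of 9 embryos (log2 -0.37 ± 0.05, adjusted p = 0.00226). The endoplasmic reticulum chaperone gene *hsp90b1* had the smallest gap of the 32, at 1.21-fold lower in B (log2 -0.28 ± 0.04, adjusted p = 0.00483). The Golgi enzymes *galnt12*, which starts mucin-type O-glycans, and *man1a2*, which trims N-glycans, were lower in B with log2 values of -0.36 ± 0.05 and -0.59 ± 0.10. *tram2*, a gene of protein entry into the endoplasmic reticulum, followed with -0.67 ± 0.11. The *galnt12* value sums 2 transcripts, and the more abundant of them had a log2 of only -0.10. As a class, genes of endoplasmic reticulum folding and entry did not lean. Of 43 measured 1 passed (*hsp90b1*), 25 had a negative and 18 a positive log2, and the median was -0.01. Of 37 epithelial junction and matrix genes 1 passed (*lamc1*), and 33 had a negative log2, with a median of -0.14. Over all genes 0.348% passed, and 4387 of 9194 had a negative log2. The integrin subunit gene *itga6* was below C in 9 of 9 embryos without passing (log2 -0.27 ± 0.06, adjusted p = 0.034).

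The remaining called genes had varied roles. *parn*, the poly(A)-specific ribonuclease that shortens mRNA tails, was lower in B (log2 -0.47 ± 0.08, adjusted p = 0.00971). It was the 1 called gene of 63 for poly(A) tail control and mRNA decay, beside 0.348% of all genes called. Of these 63 genes, 30 had a negative and 33 a positive log2. The RING finger genes *rnf167* and *rnf44* were lower in B with log2 values of -0.44 ± 0.06 and -0.68 ± 0.10, and *wsb2*, a substrate receptor of a ubiquitin ligase, with -0.74 ± 0.13. The G protein gamma subunit gene *gng7* was lower in B at -1.17 ± 0.17, and the kinase gene *dstyk* at -0.47 ± 0.07. The zinc finger genes *zbtb22*, *ikzf4* and *zfand5* were lower in B at -1.15 ± 0.18, -0.43 ± 0.07 and -0.64 ± 0.11. The list also held *gfer*, a sulfhydryl oxidase gene of mitochondria, *slc12a9* of the cation chloride cotransporter family, *stbd1*, a glycogen-binding protein gene, *nbea*, *shcbp1*, *saysd1*, *tmem19*, *tmem106a* and *zc2hc1a*, with log2 values from -1.02 to -0.35.

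**Figure D2:**
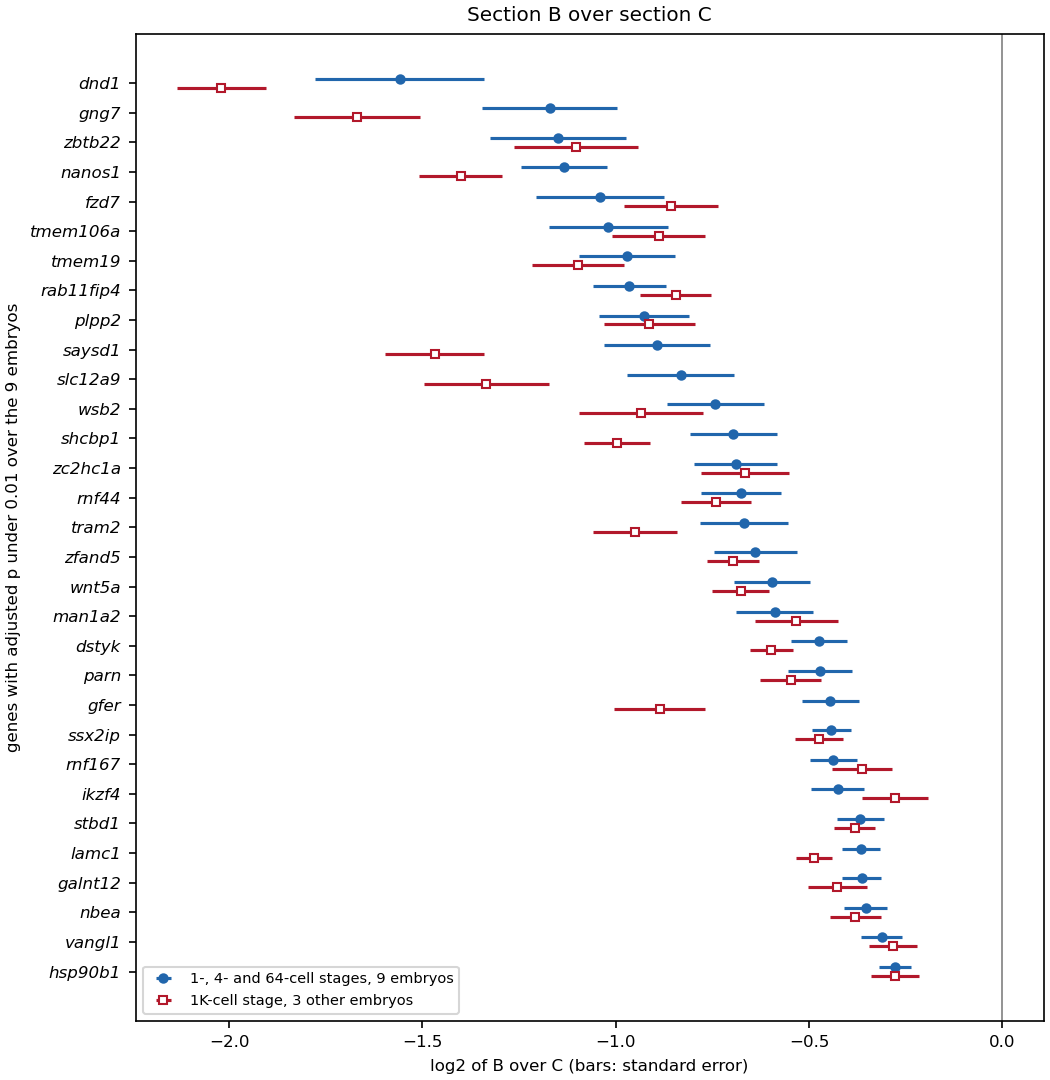
Log2 of section B over section C with its standard error for 31 of the 32 genes that passed at an adjusted p under 0.01, in the 9 embryos of the 1-, 4- and 64-cell stages (blue) and in 3 other embryos of the 1K-cell stage (red). All values lie left of 0, from -1.56 for *dnd1* to -0.28 for *hsp90b1* in the cleavage embryos.

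Within the embryos the direction was steady and the size was not. Of the 32 genes 29 were below C in 9 of 9 embryos and 3 (*dnd1*, *stbd1* and *zbtb22*) in 8 of 9. The genes were chosen by a paired test on these embryos, which favours such agreement. With the 3 stages pooled, the B and C levels overlapped for each of the 32 genes. The share over all genes is not given beside this, so the overlap is not read as a trait of the 32. Within a stage, with 3 embryos, a chosen gene could separate. At the 4-cell stage *nanos1* reached at most 69.0 in B and at least 131.9 in C. Among 7550 genes with a mean of at least 50, 113 were below C in 9 of 9 embryos (1.5%) and 56 were above C in 9 of 9 (0.742%).

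The calls depended on the embryos that entered. With 1 embryo left out at a time the number of called genes was 47, 22 and 21 without replicates 1, 2 and 3 of the 1-cell stage, 11, 12 and 10 without those of the 4-cell stage, and 14, 6 and 12 without those of the 64-cell stage. *nanos1*, *plpp2*, *rab11fip4*, *ssx2ip* and *tmem19* were among the 6 genes called in all 9 of these fits, and *parn* in 0 of them. Without the whole 1-cell stage it was 47, and without the 4-cell or the 64-cell stage edgeR called 0 genes (666 and 1217 at an unadjusted p under 0.05). With all 5 sections in 1 fit edgeR called 0 genes (594 at an unadjusted p under 0.05), and without the term for the embryo, which pairs B with C, it called 2. The 32 genes had a negative log2 of B over C in each of these fits. The fits reuse embryos on which the genes were chosen, so the kept sign is not separate support.

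The 32 genes all climbed towards the vegetal pole. The mean over the cleavage embryos was above C in section D and above D in section E for 32 of 32 genes, and A was below C for 32 of 32 but below B for only 21. Taken as the median of the 32 genes relative to C, the profile was -0.70 in A, -0.66 in B, 1.38 in D and 3.38 in E on the log2 scale. The C to B step was the smallest of the 3 steps from E to B, and its direction is fixed by the choice of the genes. That choice also favours A below C, since A and B lay close. Among the 7550 genes with a mean of at least 50, 43% had a higher mean in E than in A. The orders of C, D and E and of A and C were not counted over all genes. In the 1K-cell embryos the same medians were -1.175 in A, -0.79 in B, 1.05 in D and 1.94 in E. *nanos1* averaged 59.0 in A, 69.3 in B, 153.4 in C, 694 in D and 6043 in E, and *dnd1* 30.2, 33.7, 102.1, 711 and 5309 in the same order. *grip2* averaged 36.0 in A, 28.3 in B, 54.7 in C, 502 in D and 10130.0 in E. Section D had 8 libraries here, since the 1-cell library of replicate 3 is labelled an outlier and not used.

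**Figure D3:**
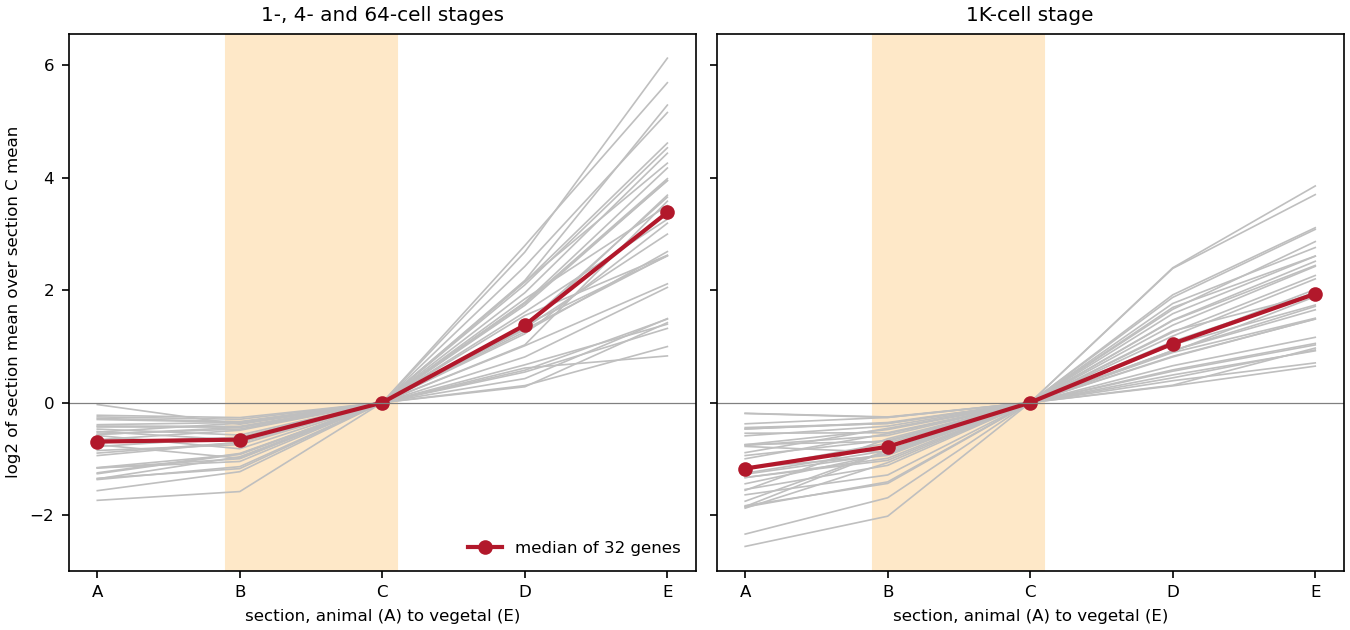
Section means relative to section C (log2, vertical axis) along sections A to E for the 32 called genes (grey) and their median (red), in the cleavage embryos (left panel) and the 1K-cell embryos (right panel). The shaded strip spans B and C, where the cleavage median stands at -0.66 in B and 0 in C, and D and E stand at 1.38 and 3.38.

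The same direction was present in the 1K-cell embryos, which had no part in choosing the 32 genes. All 32 had a log2 of B over C below 0 there, and B was below C in 3 of 3 embryos for 32 of 32 genes, beside 15.8% of the 9194 genes. At that stage 67 genes were lower in B at an adjusted p under 0.01 (0.729%), and 23 of the 32 were among them. *nanos1* averaged 102.3 ± 20.9 in B and 273 ± 30.1 in C in the 1K-cell embryos (log2 -1.40 ± 0.11, adjusted p = 0.000153), and *dnd1* 49.99 ± 8.15 in B and 205 ± 14.7 in C (log2 -2.02 ± 0.12, adjusted p = 2.9e-05). The difference between the cleavage stages and the 1K-cell stage was tested for every transcript, and edgeR called 0 of 28909 (854 at an unadjusted p under 0.05, 2 by DESeq2). Over the summed counts it called 0 of 9194 (276 unadjusted, 0 by DESeq2), and *grip2* had a log2 of 0.58 for cleavage minus 1K-cell (adjusted p = 1).

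Among the 3 cleavage stages the gap of the 32 genes between B and C was narrowest in the 1-cell embryos. For 29 of the 32 genes the log2 of the 1-cell stage was the nearest to 0, and their median log2 was -0.37 for 1-cell, -0.76 for 4-cell and -0.87 for 64-cell embryos. Per embryo the median of the 32 was -0.24, -0.39 and -0.42 in the 1-cell embryos. It was -0.86, -0.54 and -0.63 in the 4-cell embryos and -0.72, -1.05 and -0.79 in the 64-cell embryos. The 1-cell embryos did not overlap with the others, but the genes were chosen on these embryos, and the same order was not counted over all genes. The root mean square log2 distance of B to C over 8865 transcripts did not follow this order. This distance includes counting noise at unmatched library depths, so it is not read as a lack of stage change. It was 0.57, 0.66 and 0.77 in the 1-cell embryos, 0.66, 0.62 and 0.84 in the 4-cell embryos and 0.50, 0.74 and 0.585 in the 64-cell embryos. The test for a difference between stages called 0 of 28909 transcripts by edgeR (1214 at an unadjusted p under 0.05, 41 by DESeq2) and 0 of 9194 genes on the summed counts (697 unadjusted, 2 by DESeq2). Unadjusted, 13 of the 32 genes had a stage p under 0.05. *parn* had log2 values of -0.22 ± 0.10, -0.31 ± 0.09 and -0.80 ± 0.08 at the 1-, 4- and 64-cell stages (adjusted p = 0.34), and *wnt5a* -0.15 ± 0.12, -0.78 ± 0.12 and -0.79 ± 0.11 (0.38).

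Transcripts picked only from the 1K-cell embryos gave a view that did not use the cleavage libraries for the choice. The 398 transcripts with sections D and E at least 1 above A and B on the log2 scale in each 1K-cell embryo had a median log2 of B over C of -0.43 in the cleavage embryos, and 95.2% of them were below 0. Of all 13067 transcripts at the same minimum level, 47.6% were below 0. Per embryo the median of the 398 was -0.07, -0.22 and -0.21 in 1-cell embryos, -0.70, -0.39 and -0.53 in 4-cell embryos, and -0.45, -0.72 and -0.62 in 64-cell embryos. The 111 transcripts whose mean log2 level of D and E lay at least 0.5 below that of A and B had a median of 0.10. Of these 66.7% were above 0 beside 52.4% of the 13067, and their median ranged from -0.04 to 0.15 among embryos. The vegetal set was thus below C in section B of all 9 embryos and the animal set above 0 in 8 of 9. The animal set lay nearer to 0, but it was picked at a minimum of 0.5 and the vegetal set at 1, so their sizes are not comparable. These figures are descriptions with no test.

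**Figure D4:**
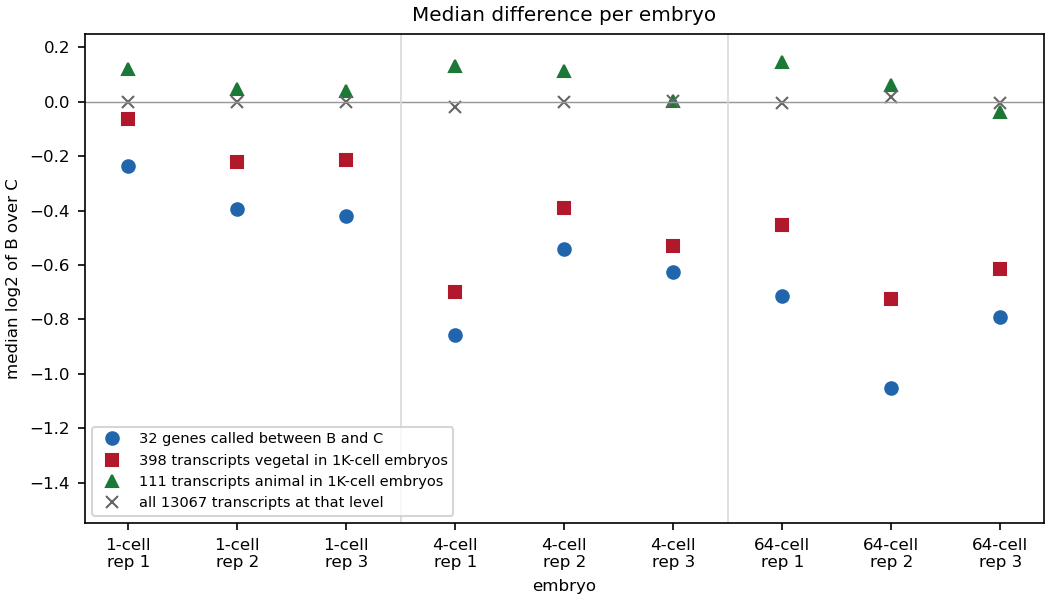
Median log2 of section B over section C (vertical axis) in each of the 9 embryos for the 32 called genes, for 398 vegetal and 111 animal transcripts picked on the 1K-cell embryos, and for all 13067 transcripts at that level. The vegetal set reaches -0.72 in replicate 2 of the 64-cell stage, and all transcripts stay within -0.02 and 0.02.

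On the animal side edgeR called 0 genes higher in B at an adjusted p under 0.01 (504 at an unadjusted p under 0.05), and DESeq2 called 1 gene on the summed counts and 19 transcripts. At an adjusted p under 0.05, 5 genes were higher in B (0.0544%), beside 107 lower in B (1.16%). They were *eif1b*, a translation initiation factor gene, *gtse1*, a microtubule-associated gene of the cell cycle, *ube2d3*, a ubiquitin-conjugating enzyme gene, *dnm1l*, the mitochondrial fission dynamin, and *septin2*. *gtse1* had levels of 639, 826 and 1100.0 in B and of 604, 749 and 904 in C (lowest, median and highest) and was above C in 9 of 9 embryos, with a log2 of B over C of only 0.18 ± 0.04 (adjusted p = 0.028). *eif1b* had a log2 of 0.26 ± 0.05 (adjusted p = 0.026) and *ube2d3* of 0.18 ± 0.04 (0.041), both above C in 9 of 9 embryos. *dnm1l* had a log2 of 0.20 ± 0.05 (0.047) and was above C in 8 of 9. The largest log2 of the 5 was that of *septin2*, 1.17 ± 0.27 (adjusted p = 0.04955). It was above C in 9 of 9 embryos, at low means of 28.5 in B and 13.4 in C. In the 1K-cell embryos the log2 was -0.18 ± 0.46 for *septin2* and -0.001 ± 0.06 for *dnm1l*. It was 0.20 ± 0.11 for *eif1b*, 0.09 ± 0.07 for *gtse1* and 0.19 ± 0.06 for *ube2d3*, and none of the 5 passed there. Of the 56 genes above C in all embryos, 47 had a higher mean in A than in E (83.9%), beside 57% of the 7550 genes at that level. The genes that the study used as animal examples had values of 0.03 ± 0.04 for *akt2* (adjusted p = 0.84) and -0.20 ± 0.45 for *ankhd1* (0.88). *ankhd1* was above C in 6 of 9 embryos. It was listed at 0 in B of replicate 1 and at 0 in C of replicate 3 of the 4-cell stage. These values are for counts summed per symbol and may not be those of the transcripts that the study showed.

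Whole classes of genes leaned by small amounts. Of 76 cytosolic ribosomal protein genes 69 had a positive log2 of B over C with a median of 0.13, of 68 oxidative phosphorylation subunits 56 with a median of 0.10, of 65 mitochondrial ribosomal proteins 55 with a median of 0.09, and of 32 proteasome subunits 30 with a median of 0.05. Over all 9194 genes 4807 had a positive and 4387 a negative log2, and 5.48% were above and 8.44% below C at an unadjusted p under 0.05. None of the ribosomal, oxidative phosphorylation and proteasome genes passed in edgeR or by DESeq2. In the order listed, 17, 8, 10 and 5 of them were above C at an unadjusted p under 0.05. The medians of single embryos ran from -0.04 to 0.36 for the cytosolic ribosomal proteins, so the lean was not present in all embryos. On the other side, 24 of 30 lysosomal genes (median -0.14) and 115 of 161 solute carriers (median -0.07) had a negative log2, with 0 and 1 called by edgeR (8 and 32 lower at an unadjusted p under 0.05, 1 and 2 by DESeq2). The called carrier was *slc12a9* (log2 -0.83 ± 0.14, adjusted p = 0.0078). Of 13 measured vegetal fate determinants 1 passed, *wnt5a*, beside 0.348% of all genes. Of these 13 genes, 10 had a negative and 3 a positive log2, with a median of -0.10. *smad2*, which carries nodal signals, and *bicc1*, an RNA-binding regulator, stood at -0.22 ± 0.05 (adjusted p = 0.031) and -0.48 ± 0.11 (0.04). *gdf1*, which the study names, was level at -0.002 ± 0.10 (0.98), and *trim36* stood at 0.09 ± 0.07 (0.58). *tbxt* was above C in 9 of 9 embryos (0.53 ± 0.21, adjusted p = 0.28), at low means of 18.5 in B and 13.0 in C. Of 10 animal hemisphere and ectoderm factors 0 passed in edgeR, at an unadjusted p under 0.05 or by DESeq2.

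**Figure D5:**
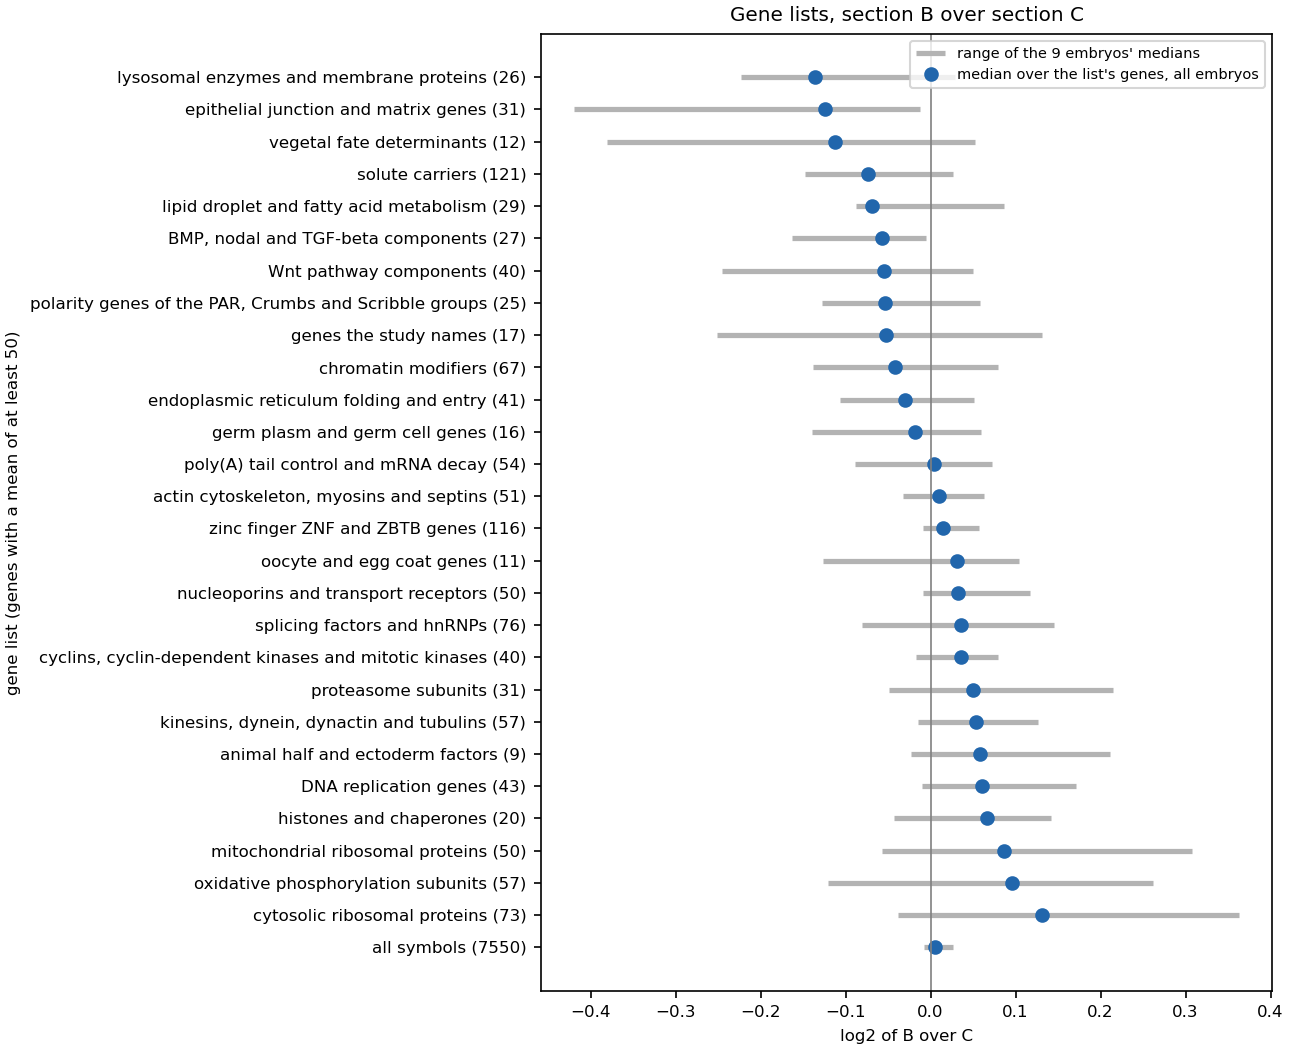
Median log2 of section B over section C (horizontal axis) for each gene list with at least 9 genes of mean 50 or more (number in brackets), with the range of the 9 embryos' medians as a grey line. Lysosomal genes sit at -0.14 and cytosolic ribosomal proteins at 0.13, around 0.01 for all genes.

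Over the more abundant transcripts, B and C were about as far apart as A and B. The root mean square log2 distance over 8865 transcripts with a mean of at least 100 was 0.66 ± 0.11 between B and C (SD, n = 9), 0.63 ± 0.08 between A and B (n = 9) and 0.77 ± 0.14 between C and D (n = 8). B to C exceeded A to B in 6 of 9 embryos, by 0.03 ± 0.07 on average, which was within the spread (exact two-sided sign-flip permutation test over embryos, p = 0.19, adjusted p = 0.19). B to C was smaller than C to D in 8 of 8 embryos, by -0.13 ± 0.11 on average (exact p = 0.00781, the smallest that 8 embryos allow, adjusted over the 2 comparisons p = 0.0156). With transcripts of a mean of at least 50 the same difference was -0.13 (adjusted p = 0.0625). These distances include counting noise, and library depth was not matched between sections or embryos. The largest B to C distance, 0.84, was in replicate 3 of the 4-cell stage, with 2362555 counts in C. The smallest, 0.50, was in replicate 1 of the 64-cell stage, with 4026659 counts in B and 5796197 in C. The share of depth in the distances was not tested.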

How the data were processed

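RNA-seq was made from sections of single embryos. Per the study's methods, reads were trimmed with Trimmomatic, cleared of ribosomal and mitochondrial reads with SortMeRNA, and assigned to the AmexT_v34 transcriptome with kallisto 0.43.1. The estimated counts deposited by the authors are whole numbers for 28909 transcripts, each above 30 counts in at least 1 library, not normalized. The authors' tables of the same libraries divided by size factors, and of sums over sections, were not used.

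Counts were fitted with edgeR 4.0.16 (quasi-likelihood test, R 4.3.3) with median-of-ratios size factors and a term for the embryo, as the study's design has the replicate as a term. B and C of 1 embryo share that embryo, and their deviations from the group means correlated at 0.051 to 0.41. P-values were adjusted by Benjamini-Hochberg over all transcripts or all symbols, and a call needs an adjusted p under 0.01. Counts were also summed per human symbol of the deposited ortholog table, which joins transcripts of 1 gene and of close copies. Alternatives were TMM factors, DESeq2 1.42.0, no embryo term, a mean of at least 10 counts, all sections, an adjusted p under 0.05, each embryo or stage left out. Differences per embryo used log2 with a pseudocount of 0.5. The rule for named genes took called transcripts and the genes named by the study, and since 0 transcripts were called, the called symbols are named here, a choice made with their values known. The members and the 30 gene lists were chosen with earlier results of these data known. The fit was tested on simulated data. No sequences are printed. Values of 1 called gene are not reported here.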

Additional observations from a re-analysis of the deposited data

Results flagged for a closer look

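In 45 sets of 9 embryo values, the named genes' log2 of B over C and the section distances, 2 held a value standing far from the other embryos, and chance alone gives about 1 such set in 20. *ankhd1* had a log2 of B over C of -8.61 in replicate 1 of the 4-cell stage, where its transcript was listed at 0 in B and at 195 in C, with the next lowest embryo at -0.45. In replicate 3 of the 4-cell stage it was listed at 32.3 in B and at 0 in C. *sys1* had a log2 of 1.37 in replicate 2 of the 4-cell stage (36.4 in B and 13.7 in C), against -0.29 to 0.30 in the other embryos.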

How the results depend on the processing

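The number of transcripts called between B and C was 0 in the fit used for the report and under TMM factors, the count minimum, all sections and every embryo or stage left out (0 to 0), and without the replicate block, the term that pairs B with C of 1 embryo, it was also 0. It was 91 by DESeq2, 4 at an adjusted p under 0.05 and 32 on counts summed per symbol. For the summed counts, 32 genes became 37 under TMM factors and 32 with the count minimum, but 2 without the replicate block, 86 by DESeq2, 0 with all sections, 0 without the 4-cell stage, 0 without the 64-cell stage, 47 without the 1-cell stage, 112 at an adjusted p under 0.05 and 6 to 47 with 1 embryo left out. The causes were not tested. Stage differences numbered 0, with 41 by DESeq2, 2 by DESeq2 on summed counts and 0 to 0 with 1 embryo left out. Differences from the 1K-cell stage numbered 0, with 2 by DESeq2, 1 without the replicate block and 0 to 1 with 1 embryo left out, the 1 without replicate 3 of the 1K-cell stage. The B to C distance minus the C to D distance was -0.13 (adjusted p = 0.0625) at a mean of at least 50, and -0.14 to -0.10 with 1 embryo left out. The B to C distance minus the A to B distance was 0.02 to 0.05 with 1 embryo left out. Among the single genes named, 436 values under alternatives kept their side of the threshold, 247 kept their direction but lost the call and 3 gained one. No called gene changed sign, but the alternatives reuse embryos on which the genes were chosen. In section B *dnd1* rested on 18.8 to 60.01 normalized counts a library, which limits the precision of its log2.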
